A study of Mus musculus with 8 samples.

Results

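The sites described here are 9101 short H3K27me3 peaks that the authors listed in wild-type mouse embryonic fibroblasts and not in E2f3-null fibroblasts, and that held no wild-type peak of E2F3 or HELLS. They were selected on the authors' H3K27me3 peak calls in both genotypes and E2F3 and HELLS peak calls in wild type, that is, on measured values. They came from 17064 wild-type H3K27me3 peaks, of which they make up 53.3%. Peaks on chromosomes 1 to 19 were joined across gaps of up to 5 kb, and 12692 of 16700 (76.0%) lay in joined domains of 10 kb or less. Of these small peaks, 2693 (21.2%) shared at least 1 bp with an E2f3-null H3K27me3 peak. A further 898 shared sequence with a wild-type E2F3 or HELLS peak and were set aside, which left the 9101 sites, 71.7% of the small peaks. They cover 5.16 Mb of the mm9 genome and lie in 6918 of the 8687 small domains (79.6%). In 5767 of those domains every peak was such a site.

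The libraries came from fibroblasts of E13.5 mouse embryos, either wild type or E2f3-/-, a null genotype for E2F3. Chromatin of each genotype was precipitated with antibodies to H3K27me3, E2F3 and HELLS separately, and IgG served as the background. Each genotype and antibody had 1 library, so a comparison below is between libraries and not between conditions, and no p-value is given. All intervals are exact 95% ranges for the counts alone, so they cover counting error and no variation between cultures. How many embryos or cultures a library stands for is not given in the sources used here.

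H3K27me3 is trimethylation of lysine 27 on histone H3. It is placed by Polycomb repressive complex 2, read by Polycomb repressive complex 1, and found over silent developmental genes, often as broad domains around CpG-rich promoters. E2F3 is a transcription factor that binds promoters of cell-cycle genes, and HELLS is an SNF2-family chromatin remodeller known for its part in DNA methylation and heterochromatin. The sites below are named by their mm9 position alone, because no annotation of that build was used.

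The 6 antibody libraries held 3799779 to 5640555 distinct reads, with the E2f3-null H3K27me3 library the smallest and the wild-type H3K27me3 library the largest. IgG was deposited with the same content for both genotypes and counts as 1 background library of 7219419 reads. The authors' wild-type and E2f3-null lists held 17064 and 7079 H3K27me3 peaks, 8889 and 3314 peaks of the E2F3 antibody, and 2489 and 4740 of HELLS. What the E2F3 antibody bound in cells that lack the protein cannot be told from these files.

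The sites were short and weak beside the small peaks that were also listed in E2f3-null cells. A comparison set of 1995 such peaks, again without a wild-type E2F3 or HELLS peak, is called the kept sites. Median length was 469 bp at the wild-type-only sites (range 181 to 4245) and 1099 bp at the kept sites. The authors' tag count had a median of 13 against 65, and the authors' peak score a median of 67.9 against 315. That score is 10 times the negative log10 of the caller's p-value, and its lowest value at the sites was 50. A score of 100 or more was reached by 2138 wild-type-only sites (23.5%) and by 1561 kept sites (78.2%). The authors' fold enrichment differed less, with medians of 13.3 and 18.2, and the authors' false discovery rate was 1.12% against 0.340% at the median. Thus the typical site was a short stretch of about 13 reads close to the calling threshold. Only 711 sites (7.81%) were longer than 1000 bp.

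H3K27me3 reads at the sites fell from 178310 in the wild-type library to 45296 in the E2f3-null library, which is 3.16% and 1.19% of each library's reads. The median site held 13 wild-type and 4 E2f3-null reads, against 3 reads of IgG. After scaling by the reads outside all peaks, the E2f3-null over wild-type ratio of summed reads was 0.341 (0.338 to 0.345). A site was called lower when its own ratio was at least 2-fold below 1 with an interval that excluded 1. That held for 3784 sites (41.6%) and no site was called higher, where over all 17064 wild-type peaks 46.4% were lower and 0.00586% higher. Because the sites were chosen for having no E2f3-null peak, these values describe the choice and nothing is read from them. With the scale set so that regions found in both lists of an antibody had a median ratio of 1, called shared-region scaling below, the ratio was 0.690, with 6.36% of sites lower and 0.121% higher. Under that scaling 6.32% of all wild-type peaks were lower and 1.47% higher.

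Absence from the E2f3-null list did not mean absence of E2f3-null reads. The smallest peak of that list held 7 tags and its median peak 15, by the authors' counts, and 2193 sites (24.1%) held 7 or more E2f3-null reads. Of the 9101 sites, 443 (4.87%) held 15 or more, while 684 (7.52%) held 0. At 122 sites (1.34%) the scaled ratio was 1 or more, and at 5273 (57.9%) the interval of the ratio held 1. For those sites a difference between the libraries was not detectable at this depth.

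**Figure D1:**
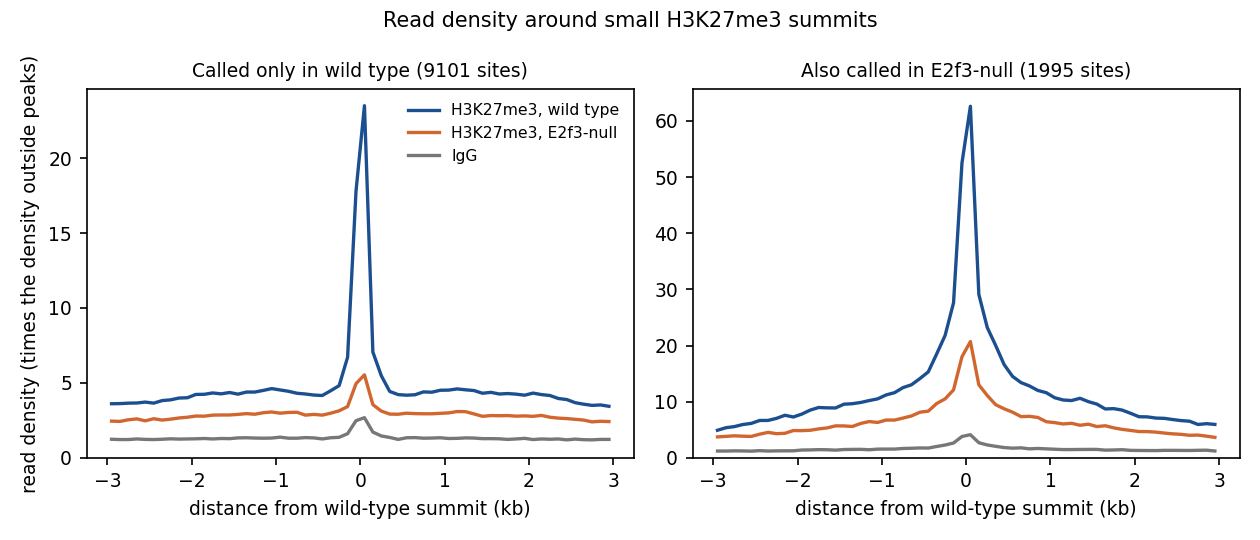
Mean read density by distance from the wild-type summit, in kb, as times the density of the same library outside all peaks, for the 9101 sites (left) and the 1995 kept sites (right), with separate vertical scales. The wild-type curve of the sites has a narrow summit over a raised plateau, and the E2f3-null curve has a lower plateau with a small summit.

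The profile around the summit showed a narrow peak in wild type on a wider, shallower rise. Within 100 bp on either side of the summit the wild-type H3K27me3 density was 20.6 times its background outside peaks, the E2f3-null density 5.25 times and the IgG density 2.58 times. At 1 kb from the summit the same values were 4.54, 3.0 and 1.33, and at 3 kb 3.55, 2.44 and 1.23. The curves lie furthest apart at the summit by choice, since the summits are those of wild-type peaks with no E2f3-null peak. At the kept sites the wild-type summit reached 57.5 times background and the E2f3-null summit 19.4. IgG was itself raised at the summits of both sets, with 3.96 times background at the kept sites.

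Against IgG, the sites stood 6.05-fold above background (5.99 to 6.12) for wild-type H3K27me3, while E2f3-null H3K27me3 stood 2.06-fold above it (2.04 to 2.09). Singly, 8532 sites (93.7%) were enriched at least 2-fold over IgG in wild type with an interval above 1, where 95.9% of all wild-type peaks were. In E2f3-null cells 1602 sites (17.6%, 16.8 to 18.4) met the same criterion, where 40.4% of all wild-type peaks did. The kept sites had a wild-type enrichment of 11.1-fold and an E2f3-null enrichment of 4.64-fold, and 94.0% met the criterion in the latter. Both measures were combined to sort the sites. There were 393 sites that were lower in E2f3-null cells and still enriched over IgG there, 3391 that were lower and not enriched, 1209 that were enriched and not lower, and 4108 that were neither. These are 4.32%, 37.3%, 13.3% and 45.1% of the sites, where the shares over all wild-type peaks were 17.3%, 29.1%, 23.1% and 30.5%. Nothing is read from this sorting, which uses the contrast that chose the sites. In 2197 sites (24.1%) the E2f3-null value was at or below IgG.

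The stretches next to the sites were then counted, leaving out every region listed as a peak in any of the 6 libraries. The rule used no read counts from these stretches, but its 10 kb limit on domains bounds how many wild-type peaks lie nearby. In the first 0.5 kb beyond the peak edges, wild-type H3K27me3 stood at 2.11 over IgG (2.08 to 2.14) and E2f3-null H3K27me3 at 2.10 (2.07 to 2.13), a ratio of 0.997 between genotypes. Both decreased with distance. From 2 to 5 kb they were 1.67 and 1.49, with a ratio of 0.893, and from 20 to 50 kb 1.13 and 1.01, with a ratio of 0.887. Within the sites the values were 6.05 and 2.06. Those are set by the rule, which asked for a wild-type peak and no E2f3-null peak, and peak edges were set in the wild-type library, so the contrast between site and flank is given as a description. The new values are those of the flanks, which were raised over IgG in both genotypes. Ratios between genotypes in the flanks rest on the scaling, which sets summed reads outside all peaks equal and so uses the flanks themselves. Shared-region scaling raises H3K27me3 log2 ratios by 1.02. More wild-type than E2f3-null H3K27me3 peaks were left out (17064 and 7079), so nothing is read from the flank ratio of 0.997.

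**Figure D2:**
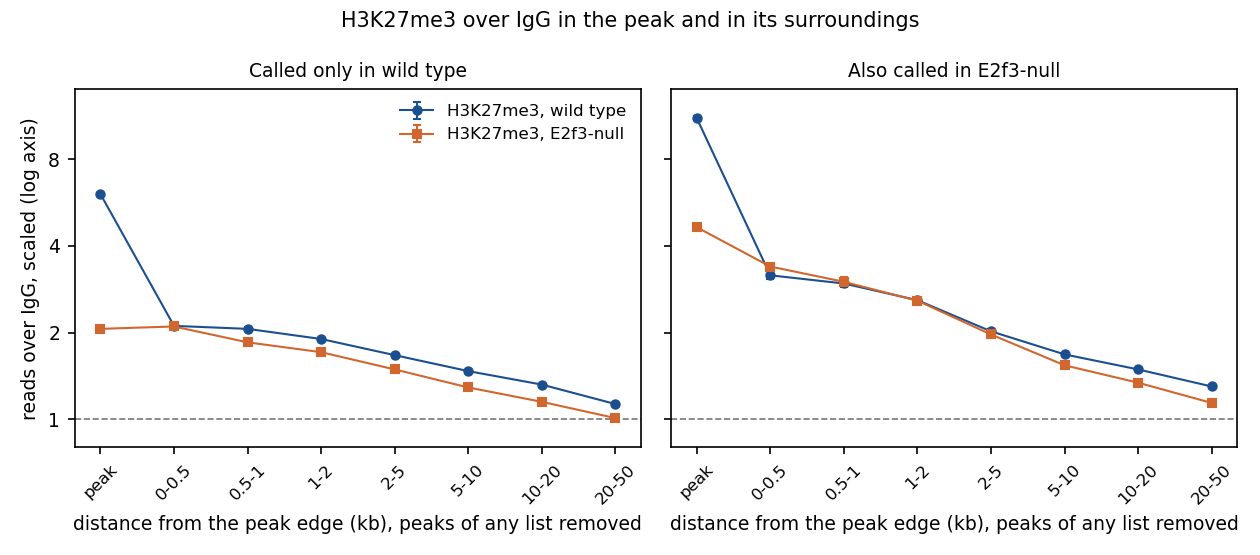
H3K27me3 reads over IgG (log axis) within the peak and in stretches outside all peaks by distance from the peak edge in kb, for wild type and E2f3-null, with 95% counting intervals smaller than most symbols. At the 9101 sites (left) wild type stands at 6.05 and E2f3-null at 2.06 within the peak, and they stand at 2.11 and 2.10 beside it. At the 1995 kept sites (right) they stand at 11.1 and 4.64 within the peak.

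At the kept sites, which overlap an E2f3-null peak by choice, the E2f3-null value was 4.64 within the peak and 3.39 (3.28 to 3.50) in the flank, where wild type had 3.16 (3.06 to 3.27). Among 2117 sites that were alone in their domain and over 100 kb from any E2f3-null H3K27me3 peak, the flank of 0.5 kb was 1.68 in both genotypes. Even at these isolated sites the flank was above the level of 20 to 50 kb away, which was 1.07 for wild-type and 0.968 for E2f3-null H3K27me3.

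The company a site kept in its domain went with its E2f3-null level. Of the 9101 sites, 4702 (51.7%) were the only peak of their domain, and the fullest domain held 10 peaks. E2f3-null H3K27me3 over IgG was 1.70 (1.67 to 1.73) at the lone sites, 2.15 with 1 other peak, 2.62 with 2 and 2.87 (2.77 to 2.97) with 3 or more. Wild-type values went from 5.71 to 7.0 over the same classes. The E2f3-null over wild-type ratio was 0.297 (0.293 to 0.302) at the lone sites and 0.409 (0.399 to 0.420) in the fullest class. The 1609 sites (17.7%) that shared a domain with a peak found in both genotypes had a ratio of 0.415, and the 2790 in domains of several peaks with none kept had 0.362. All these sites were chosen for having no E2f3-null peak, and the kept class uses that same list. The classes were not matched for length or wild-type reads, so the order is a description.

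Distance to the nearest E2f3-null H3K27me3 peak, whose median was 33.9 kb, gave the same order. The 953 sites within 1 kb of one stood at 3.21 over IgG in E2f3-null cells, and the 2806 sites more than 100 kb away at 1.66. In between, the value was 2.46 from 1 to 10 kb and 1.94 from 10 to 100 kb. The ratio between genotypes was 0.433 (0.422 to 0.445) in the nearest class and 0.301 (0.295 to 0.307) in the farthest. Of the 4 classes the most distant one thus had the lowest ratio. These classes use the same E2f3-null list that chose the sites, so no test is given.

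**Figure D3:**
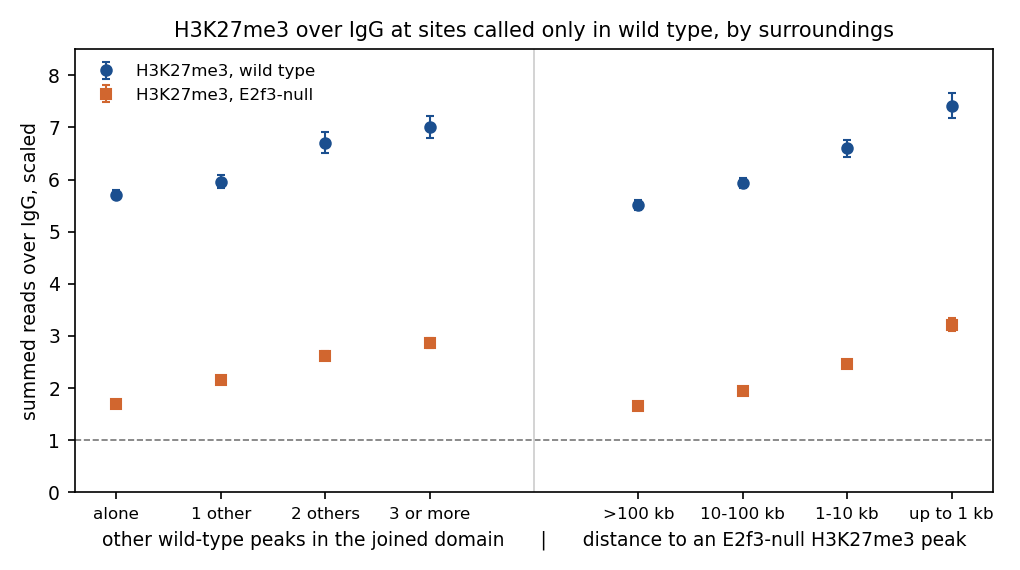
H3K27me3 reads over IgG at the sites in wild type and E2f3-null, with 95% counting intervals, by the number of other wild-type peaks in the joined domain (left) and by distance to an E2f3-null H3K27me3 peak (right). The E2f3-null level is lowest at lone and distant sites (1.70 and 1.66) and highest in crowded domains and within 1 kb (2.87 and 3.21).

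Sites were also near one another. The median distance to another wild-type H3K27me3 peak was 5.51 kb, and 2573 sites (28.3%) had one within 1 kb. A domain longer than 10 kb was a median of 756 kb away. The nearest wild-type E2F3 peak lay at a median of 51.5 kb and the nearest wild-type HELLS peak at 172 kb.

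The ratio was also set against the number of wild-type reads at a site. At wild-type-only sites it was 0.353 (0.344 to 0.362) with 8 to 10 reads, 0.375 with 16 to 30 and 0.273 (0.261 to 0.286) at the 64 sites with over 120. At kept sites it was 1.06 (0.962 to 1.18) with 8 to 10 reads, 0.768 with 16 to 30 and 0.363 (0.358 to 0.367) with over 120. A kept site with few wild-type reads had to have enough E2f3-null reads for a peak, and a wild-type-only site had to lack them, so the gap at low counts is set by the choice. With both sets joined the ratio was 0.380. The share of sites called lower rose with the count, from 20.9% with 8 to 10 reads to 62 of the 64 sites with over 120 reads. In 4 classes of equal size by the authors' score the ratios lay between 0.326 and 0.362.

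**Figure D4:**
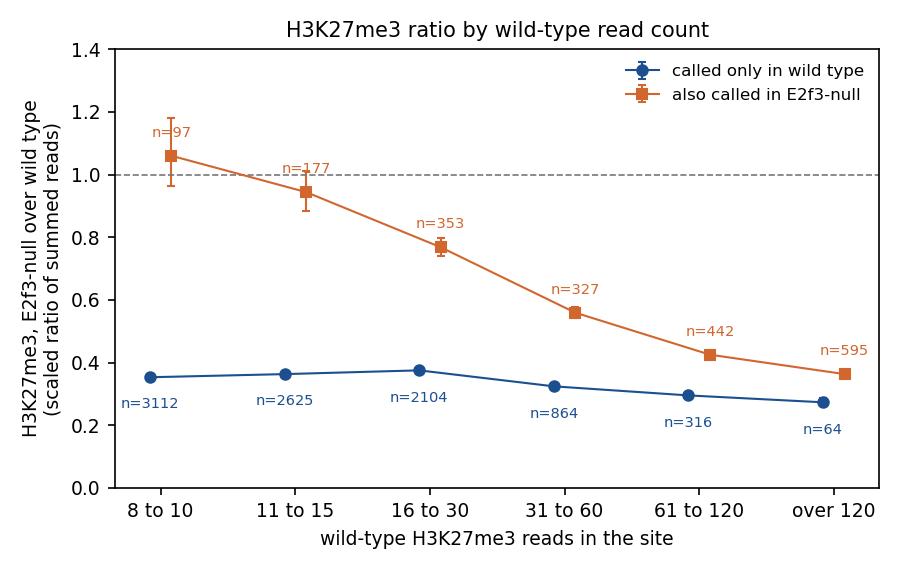
Scaled E2f3-null over wild-type ratio of summed H3K27me3 reads by the wild-type read count of the site, with 95% counting intervals and the number of sites in each class, for the sites called only in wild type and the kept sites. The sites run from 0.353 to 0.273 and the kept sites from 1.06 down to 0.363, and sites with fewer than 8 reads after reads were moved are not drawn.

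The 8 sites with the highest authors' score show what a strong site of this kind looked like. The highest was chr10:114237098-114239676, a lone peak of 2579 bp with 310 wild-type and 45 E2f3-null H3K27me3 reads. It held 34 and 25 reads of the E2F3 antibody, 34 and 23 of HELLS, each wild type first, and 36 of IgG. The wild-type H3K27me3 library was by far the highest, and the ratio was 0.195 (0.139 to 0.267). E2f3-null H3K27me3 was also enriched, 2.47-fold above IgG (1.56 to 3.94), so a site with 45 E2f3-null reads was nevertheless missing from the E2f3-null list.

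The site chr9:21791840-21794336, in a domain of 4 peaks, held 211 and 47 H3K27me3 reads, 12 and 18 of E2F3, 13 and 14 of HELLS and 25 of IgG. Its ratio was 0.299 (0.213 to 0.412). The 4 other antibody libraries held fewer raw reads than IgG, which was the largest library (7219419 reads), so these counts are not scaled against it. In chr5:128111976-128113399 the counts were 137 and 25 for H3K27me3, 16 and 9 for E2F3, 15 and 11 for HELLS and 12 for IgG. This site had the highest wild-type enrichment of the 8, 16.8-fold over IgG, and a ratio of 0.245 (0.153 to 0.377).

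Next came chr15:64751667-64754327, with 261 and 45 H3K27me3 reads, 33 and 19 of E2F3, 16 and 23 of HELLS and 40 of IgG. The ratio there was 0.232 (0.165 to 0.319). The lone site chr12:68321542-68324126 held 253 and 59 H3K27me3 reads, 40 and 18 of E2F3, 31 and 34 of HELLS and 45 of IgG. Besides H3K27me3, with a ratio of 0.313 (0.232 to 0.417), the E2F3 antibody was called lower at this site, with a ratio of 0.468 (0.252 to 0.835).

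At chr11:103053220-103055683 the counts were 167 and 41 for H3K27me3, 20 and 20 for E2F3, 19 and 13 for HELLS and 21 for IgG, and the H3K27me3 ratio was 0.330. A further lone site, chr2:156245913-156247987, had 190 and 42 H3K27me3 reads, 36 and 14 of E2F3, 30 and 33 of HELLS and 32 of IgG. Here too E2F3 was called lower (0.404, 0.201 to 0.768) beside H3K27me3 (0.297). The last of the 8, chr19:53750506-53752364, held 266 and 35 H3K27me3 reads, 25 and 27 of E2F3, 26 and 20 of HELLS and 43 of IgG. Its H3K27me3 ratio of 0.177 (0.121 to 0.252) was the lowest of the 8, and HELLS was not called at any of them. With shared-region scaling the sites on chromosomes 9, 12, 11 and 2 were no longer called lower for H3K27me3, with log2 ratios of -0.71, -0.65, -0.57 and -0.72, while the other 4 were. That scaling raises E2F3 log2 ratios by 1.16, so neither E2F3 fall, on chromosome 12 or 2, would reach 2-fold with it.

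The largest falls were at sites with 0 E2f3-null reads. The site chr16:65473752-65474437 held 41 wild-type and 0 E2f3-null H3K27me3 reads, 9 and 8 of E2F3, 7 and 7 of HELLS and 15 of IgG. With a floor of 3 reads for the empty library, H3K27me3 was 10.2-fold lower, and the interval of the ratio reached up to 0.126. At chr10:85762874-85763918 the counts were 37 and 0, with 16 and 9 of E2F3, 10 and 12 of HELLS and 18 of IgG. With the same floor H3K27me3 there was 9.18-fold lower, with an interval of the ratio up to 0.141. At both sites the other antibodies gave reads in both genotypes. At chr2:163468312-163469015, with 36 and 0 H3K27me3 reads and 9 of IgG, the other antibodies were sparse too, with 2 and 0 reads of E2F3 and 1 and 1 of HELLS.

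The other sites of this kind were chr2:156526073-156527397, with 35 and 0 H3K27me3 reads, and chr6:91106484-91107235, with 33 and 0. In the former E2F3 gave 9 and 7 reads, HELLS 6 and 5 and IgG 11. In the latter E2F3 gave 15 and 18 reads, HELLS 12 and 17 and IgG 10. Both were lone peaks, 8.69-fold and 8.19-fold lower with the floor of 3 reads, with intervals of the ratio up to 0.149 and 0.159.

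At the opposite end, 5 sites with 20 or more wild-type reads had the highest ratios. The site chr10:68862580-68863445 held 21 wild-type and 19 E2f3-null H3K27me3 reads, 4 and 1 of E2F3, 0 and 5 of HELLS and 7 of IgG, a ratio of 1.22 (0.618 to 2.37). At chr3:34563407-34564334 the counts were 30 and 24, with 6 and 8 of E2F3, 4 and 8 of HELLS and 10 of IgG, a ratio of 1.07. At chr12:81617532-81618761 they were 30 and 22, with 5 and 6 of E2F3, 2 and 6 of HELLS and 8 of IgG, a ratio of 0.985. These 3 sites were 4.75-fold to 5.44-fold above IgG in E2f3-null cells and lay in domains of 3 to 6 peaks.

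The remaining pair was chr10:79913328-79914329 and chr2:29079227-29080093. The former held 22 and 16 H3K27me3 reads, 4 and 0 of E2F3, 7 and 6 of HELLS and 12 of IgG. The latter held 21 and 15 H3K27me3 reads, 8 and 3 of E2F3, 7 and 3 of HELLS and 7 of IgG. Their ratios were 0.977 and 0.959, and both intervals held 1. At these 5 sites a difference between genotypes was not detectable with the main scaling. With shared-region scaling the first 2, chr10:68862580-68863445 and chr3:34563407-34564334, were called higher in E2f3-null cells, with log2 ratios of 1.30 and 1.13.

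The other antibodies gave little signal at the sites, which the rule favoured by removing wild-type peaks of E2F3 and HELLS. Summed reads over IgG were 1.21 for wild-type E2F3, 1.08 for E2f3-null E2F3, 1.12 for wild-type HELLS and 1.02 for E2f3-null HELLS. Singly, 222 sites (2.44%) were enriched for wild-type E2F3 and 123 (1.35%) for E2f3-null E2F3, where 12.1% and 4.18% of all wild-type H3K27me3 peaks were. For HELLS 104 sites (1.14%) were enriched in the wild-type library and 88 (0.967%) in the other, where 4.45% and 5.55% of all were. At the 898 sites set aside for an E2F3 or HELLS peak the same values were 3.72, 1.72, 1.71 and 1.88. H3K27me3 at those 898 sites stood 4.52-fold over IgG for wild type and 1.28-fold for E2f3-null. Both were below the 6.05 and 2.06 of the 9101 sites, but not for fewer H3K27me3 reads per site. Median counts at the 898 sites were 40 wild-type and 8 E2f3-null H3K27me3 reads and 15 of IgG, over a median length of 912 bp. At the 9101 sites the medians were 13, 4 and 3 reads over 469 bp.

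**Figure D5:**
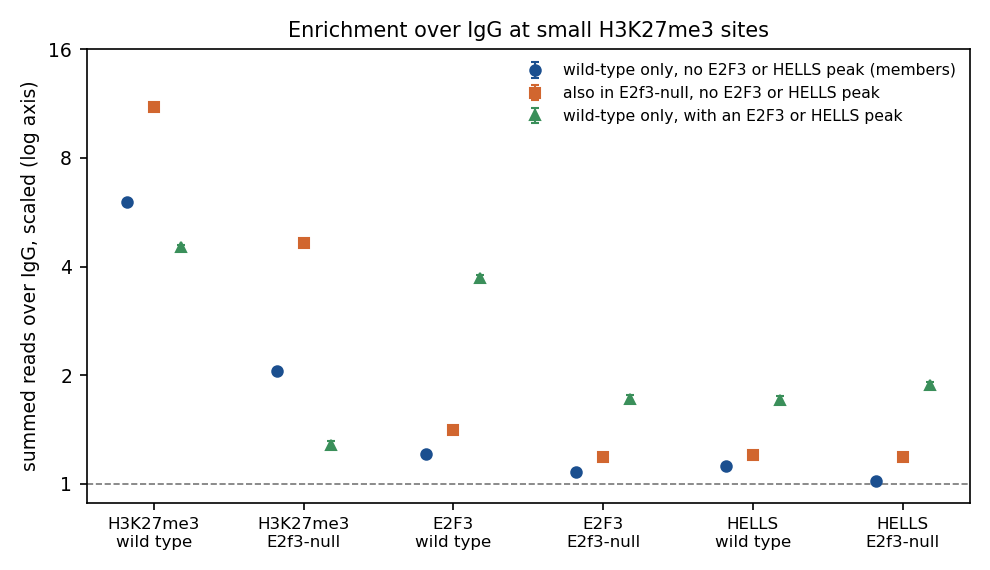
Summed reads over IgG (log axis) for the 6 antibody libraries at the 9101 sites, the 1995 kept sites and the 898 wild-type-only sites with an E2F3 or HELLS peak, with 95% counting intervals mostly smaller than the symbols. At the 9101 sites the E2F3 and HELLS libraries lie between 1.02 and 1.21.

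The E2F3 antibody gave 31852 wild-type and 27464 E2f3-null reads at the sites, a scaled ratio of 0.896 (0.882 to 0.911). Singly, 92 sites (1.01%) were lower and 32 (0.352%) higher, where 5.66% and 0.393% of all wild-type H3K27me3 peaks were. The rule removed sites with a wild-type E2F3 peak, so a low share called lower is partly set by it. Of the 898 sites set aside, 47.6% were lower for E2F3, and the set of all wild-type peaks still holds them. Counts were low, and 4951 sites (54.4%) held fewer than 5 E2F3 reads in both libraries together. Of the calls 74.2% were lower, 54.8% with scaling by all distinct reads and 0.188% with shared-region scaling, which gave 1 site lower, 5.85% of sites higher and a ratio of 2.00. The direction of the E2F3 change at the sites therefore depended on the scaling.

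The E2F3 ratio was lower in classes of sites with more wild-type H3K27me3 reads. These classes were not matched for site length, so read number and length are not told apart. It was 0.983 (0.944 to 1.02) at sites with 8 to 10 wild-type H3K27me3 reads, 0.939 with 16 to 30, 0.830 with 31 to 60 and 0.783 (0.732 to 0.838) with over 120. In the last class 7 of 64 sites (10.9%) were called lower and 0 higher, where 5.66% and 0.393% of all wild-type peaks were. Those calls rest on the scaling: shared-region scaling gave 0 lower and 20 higher in that class, with a ratio of 1.75. The order of the class ratios does not change with it, since 1 factor multiplies all classes alike.

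HELLS gave 34997 wild-type and 32081 E2f3-null reads, a ratio of 0.910 (0.897 to 0.924). Here 59 sites (0.648%) were lower and 33 (0.363%) higher, where 0.844% and 0.633% of all wild-type peaks were. Removing sites with a wild-type HELLS peak leans the ratio upward, and the set of all wild-type peaks still holds the removed sites. Of the calls 64.1% were lower, and 91.2% with shared-region scaling. By wild-type H3K27me3 reads the HELLS ratio ran from 0.881 (0.849 to 0.914) with 8 to 10 reads to 0.963 (0.901 to 1.03) with over 120, without the decline seen for E2F3. At the kept sites it was 0.996 (0.978 to 1.02).

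Single HELLS calls rested on few reads. The largest rises were at chr12:91050780-91051231, with 0 wild-type and 10 E2f3-null HELLS reads, chr1:135786526-135786998, with 0 and 7, and chr1:89373557-89373994, with 0 and 6. H3K27me3 at these held 12 and 1, 22 and 7, and 13 and 1 reads, E2F3 held 7 and 2, 3 and 3, and 1 and 1, and IgG 4, 7 and 5. Against a floor of 3 reads they were 3.31-fold, 2.32-fold and 1.99-fold higher, the last of which is under 2-fold. The lower ends of their intervals were 2.23, 1.43 and 1.17.

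The largest HELLS falls were at chr11:97199741-97200572, with 13 and 0 reads, chr10:4424347-4424818, with 11 and 0, and chr9:48540059-48540576, with 9 and 0. With the floor of 3 reads they were 4.36-fold, 3.69-fold and 3.02-fold lower, with intervals of the ratio up to 0.326, 0.396 and 0.503. H3K27me3 at these held 28 and 6, 28 and 5, and 14 and 3 reads, E2F3 held 4 and 5, 11 and 6, and 6 and 2, and IgG 6, 8 and 1.

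Peaks of the E2f3-null HELLS and E2F3-antibody lists were not used by the rule directly. Yet of the 898 sites it removed for a wild-type E2F3 or HELLS peak, 36.5% overlapped an E2f3-null HELLS peak. For E2f3-null peaks of the E2F3 antibody that share was 21.5%. Low shares at the remaining sites are thus partly set by the rule, and the set of all wild-type peaks still holds the removed sites. An E2f3-null HELLS peak overlapped 69 sites (0.758%, 0.590 to 0.959), against 7.40% of all wild-type peaks and 188 of the 1995 kept sites (9.42%, 8.18 to 10.8). An E2f3-null peak of the E2F3 antibody overlapped 55 sites (0.604%, 0.456 to 0.786), against 4.65% of all and 6.37% (5.33 to 7.53) of the kept sites. Both kinds of peak met at 17 sites. The kept sites were longer, and they overlap E2f3-null H3K27me3 peaks by choice, so the shares are given side by side and their difference was not tested further.

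At the 69 sites with an E2f3-null HELLS peak the H3K27me3 ratio was 0.244 (0.224 to 0.265), and 64 (92.8%) were called lower, where 41.6% of the 9101 sites and 46.4% of all wild-type peaks were. H3K27me3 was used to choose the sites, so this too is a description. HELLS there went from 1.48 over IgG in the wild-type library to 1.91 in the E2f3-null library, and 5 sites were called higher and 0 lower. A rise is built into that set, which has an E2f3-null HELLS peak and by the rule no wild-type one. At the 55 sites with an E2f3-null peak of the E2F3 antibody, the wild-type library of that antibody stood 2.15-fold over IgG and the E2f3-null library 2.16-fold. Their ratio was 1.01 (0.920 to 1.10) with the main scaling, although a peak was listed in E2f3-null cells alone. Shared-region scaling raises E2F3 log2 ratios by 1.16, so the equality depends on the scaling. This set too was chosen for an E2f3-null peak and no wild-type one.

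A few sites were high in every library, IgG included. The site with the most E2F3-antibody reads and the most E2f3-null H3K27me3 reads was chr11:3031904-3036148, the longest at 4245 bp. It held 427 and 138 H3K27me3 reads, 282 and 272 of E2F3, 379 and 285 of HELLS and 492 of IgG. Wild-type H3K27me3 was 1.28-fold over IgG there and E2f3-null H3K27me3 0.555-fold, and 23 sites (0.253%) held over 40 IgG reads. Without those 23 the enrichment over IgG of all other sites was 6.15 for wild type and 2.10 for E2f3-null.

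The next sites by E2F3 reads also belonged to those with over 40 IgG reads, and their E2f3-null H3K27me3 was likewise below IgG, at 0.600 and 0.835. At chr16:17208509-17210983 E2F3 gave 63 and 20 reads, H3K27me3 104 and 17, HELLS 36 and 39 and IgG 56. E2F3 was called lower there (0.330, 0.189 to 0.553) together with H3K27me3 (0.220, 0.123 to 0.369), while HELLS gave 1.08. That E2F3 call was made with the main scaling. Shared-region scaling raises E2F3 log2 ratios by 1.16, which would leave the fall under 2-fold and so not called. At chr2:102290257-102292309 E2F3 gave 57 and 36 reads, H3K27me3 93 and 19, HELLS 48 and 68 and IgG 45, and of these only H3K27me3 was called, though not with shared-region scaling (log2 -0.82). By E2f3-null H3K27me3 reads, chr12:68321542-68324126 with 59 came second and a site on chromosome 18 with 58, against 232 in wild type and 52 of IgG, came next.

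Membership at the thresholds turned on small distances. The site chr4:154228916-154229249, with 13 and 2 H3K27me3 reads, directly adjoined an E2f3-null H3K27me3 peak and counted as wild-type only. The peak chr11:120523109-120523633, with 17 and 4 reads, shared 1 bp with one and counted as kept. The longest domain included, at chr6:8906530-8907463, was 9987 bp long and held 34 and 14 reads in that peak, and the shortest left out, at chr15:35225454-35226450, was 10004 bp long with 60 and 11. For E2F3, chr8:36438558-36439404 lay 10 bp from a wild-type peak, with 5 and 3 reads of that antibody, and chr15:78267754-78268206 shared 1 bp with one and held 2 and 7. For HELLS, chr5:52505750-52506790 lay 14 bp from a wild-type peak, with 13 and 8 reads, and chr10:80655897-80656410 shared 2 bp, with 1 and 3. Counts inside a threshold were lower than those outside it in some of these pairs and higher in others.

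The sites were spread over all 19 autosomes, from 223 on chromosome 18 to 854 on chromosome 2. Their density ran from 1.55 per Mb on chromosome 3 to 6.74 per Mb on chromosome 11. As a share of the wild-type H3K27me3 peaks they ran from 42.3% on chromosome 13 to 66.5% on chromosome 16. The H3K27me3 ratio varied far less, from 0.309 (0.289 to 0.331) on chromosome 16 to 0.351 (0.339 to 0.363) on chromosome 2. Reads outside peaks had a scaled E2f3-null over wild-type ratio between 0.902 and 1.06 by chromosome. For H3K27me3 at the sites, the highest upper end of an interval over the 19 autosomes was 0.370. Because the sites were chosen for having no E2f3-null peak, a low ratio on each autosome describes the choice. These ratios are from the main scaling, and shared-region scaling gave 0.690 for all sites together.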

How the data were processed

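Aligned reads on mm9 were deposited by the authors, per the submitters' processing notes. The aligner is not given in the sources used here. For each library the authors ran MACS 1.4.0beta against IgG at a p cutoff of 1e-05, per the file headers. The deposited tables give tag counts, a score, a fold ratio and a false discovery rate in percent, and the signal height at each summit was deposited too. Headers name IgG controls of 3444066 and 3791438 tags, but the deposited IgG files were identical and served as 1 background.

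With Python 3.11.15, pandas 2.3.3 and scipy 1.17.1, 1 read per position and strand was kept (1640 to 4025 repeats per file), moved 60 bp from its 5' end and counted per peak. Counts were scaled by reads outside all 27089 merged peak regions. Calls needed 2-fold and an exact conditional binomial 95% interval excluding 1, and shares carry Clopper-Pearson intervals. Counts were simulated for H3K27me3 at 17064 peaks. The criteria called lower 52.0% of 50 peaks set to 0.25 of their level, 24.0% of 50 set to 0.5, and 1.01% of unchanged peaks. No peak calling was simulated, so the last share is not that of sites chosen by the rule.

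Members and lists were chosen with earlier results of these data known. Named sites were those highest in score (8), largest in fall (5, empty libraries ordered after adding 0.5 to both counts), highest in ratio with 20 or more wild-type reads (5), most changed in HELLS (3 each way), highest in E2F3-antibody reads (3) and E2f3-null H3K27me3 reads (3), and those beside each threshold. Alternatives covered read position, scaling, score, fold, overlap and joining. No sequence is shown, because no mm9 genome was used.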

Additional observations from a re-analysis of the deposited data

How the results depend on the processing

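Of 116 alternative values for the summary results, 78 stayed within a margin, 37 moved and 1 turned in direction. The margin was the main counting interval for summed ratios and for overlaps with E2f3-null peaks. It was the wider 1.5 times for shares of sites called or enriched and for the number of sites. Of the 78, 53 were such shares of sites. The alternatives without sites of over 40 IgG reads and with the kept sites joined were chosen after seeing the data. Shared-region scaling, with a median ratio of 1 over regions found in both lists of an antibody, shifts log2 ratios by 1.02 for H3K27me3, 1.16 for E2F3 and -0.18 for HELLS. It turned the E2F3 ratio to 2.00 (0.0110% of sites lower, 5.85% higher). It moved H3K27me3 to 0.690 (6.36% lower, 0.121% higher) and HELLS to 0.803 (1.82% lower, 0.176% higher). Scaling by all distinct reads gave 0.377 for H3K27me3, 0.957 for E2F3 with 0.670% of sites higher, and 5.26 and 1.98 over IgG for wild-type and E2f3-null H3K27me3. With reads not moved, H3K27me3 was 0.336 and wild type 6.15 over IgG. At sites of score 100 or more H3K27me3 was 0.325 with 73.6% lower, E2F3 0.853 with 2.29% lower and 0.561% higher, and HELLS 0.939 with 0.982% lower. H3K27me3 over IgG was 6.91 and 2.25 at those sites, with 35.7% enriched in E2f3-null cells. Without sites of over 40 IgG reads it was 6.15 and 2.10. With the kept sites joined, H3K27me3 was 0.380, E2F3 0.875 and HELLS 0.944, and H3K27me3 over IgG 7.94 and 3.02, with 31.3% enriched in E2f3-null cells. The number of sites was 2490 from wild-type peaks of score 100 or more and 3788 with that limit on all 4 lists, and 6925 to 11205 under the other overlap, gap and domain settings. With E2f3-null peaks of score 100 or more, 0.110% of sites overlapped a HELLS peak and 0.0220% a peak of the E2F3 antibody. For the moves from selecting sites or peaks, the alternative leaves fewer or other sites, and for the rest the cause was not tested. Among 52 sites examined singly, 35 were called for H3K27me3, and of 208 alternative values 26 lost the call, 21 of them under shared-region scaling, 3 gained it and no called site turned in direction. Of the sites not called, 10 changed sign under shared-region scaling. No paired analysis was possible because each group is 1 library. With a median of 13 wild-type reads per site, small changes at a single site could not be read.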
